A study of Mus musculus with 10 samples.

Results

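The AP-1 family is described here through 9 genes, Jun, Junb, Jund, Fos, Fosb, Fosl1, Fosl2, Atf3 and Batf, in mouse acute myeloid leukaemia cells driven by the MLL-AF9 fusion. A gene was included where the platform annotation gave its symbol as the only symbol of a probe set. Each of the 9 had 1 such probe set, and all 9 passed the filter on low levels that left 15662 of 19938 genes for testing. The series holds 10 arrays from 5 independent primary leukaemia lines, all of which carried the tamoxifen-inducible Cre-ER transgene. Lines 10949, 10950 and 10986 had the conditional Zfx allele (Zfx fl/y) and lines 10977 and 10980 the wild-type allele (wt/y), and they are called fl and wt lines here. Zfx is an X-linked zinc finger transcription factor. Each line was cultured with 10 nM 4-hydroxytamoxifen (4-OHT) and with ethanol vehicle for 72 h in medium with IL-3, IL-6 and SCF, and c-Kit-positive cells were then sorted. This gave 3 fl 4-OHT, 3 fl vehicle, 2 wt 4-OHT and 2 wt vehicle arrays, with 1 array per line and treatment. Neither the promoter that drives Cre-ER nor the ages of the mice are given. The wt lines carry Cre-ER and received 4-OHT as well, so both genotypes share the transgene and the exposure. Cre activity itself was not measured here.

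AP-1 is a dimer of basic leucine zipper proteins that binds short DNA sites near genes of growth, stress and differentiation. Jun proteins pair with each other or with Fos proteins, Fos proteins need a partner, and Atf3 and Batf join the same dimers and often damp their activity. Most of these genes are immediate early genes, whose transcripts appear within minutes of a growth factor, cytokine or stress signal and decay quickly. In the myeloid lineage, Jun is known as a partner of the transcription factor PU.1 in monocyte differentiation, and loss of Junb in mice gives a myeloproliferative disease.

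Several AP-1 genes are themselves controlled through AP-1 and cyclic AMP response elements. The start regions of 4 members with such letters, Jun, Junb, Fos and Atf3, are shown for that reason. Each window runs from 250 bases before to 50 bases after the gene's start in RefSeq (build GRCm38.p6), 5′ to 3′ on the gene's strand. Capitals mark TGACATCA, the letters of the AP-1 site known from the Jun promoter, in Jun. In the other 3 windows they mark TGACG, the first letters of a cyclic AMP response element, or its reverse complement.
Jun, chr4:95052173-95052472, minus strand: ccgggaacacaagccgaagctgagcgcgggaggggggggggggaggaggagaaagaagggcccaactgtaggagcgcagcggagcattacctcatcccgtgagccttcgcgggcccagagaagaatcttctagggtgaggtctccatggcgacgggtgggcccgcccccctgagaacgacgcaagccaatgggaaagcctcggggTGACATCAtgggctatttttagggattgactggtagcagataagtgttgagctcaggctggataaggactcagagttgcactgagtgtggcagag
Junb, chr8:84978699-84978998, minus strand: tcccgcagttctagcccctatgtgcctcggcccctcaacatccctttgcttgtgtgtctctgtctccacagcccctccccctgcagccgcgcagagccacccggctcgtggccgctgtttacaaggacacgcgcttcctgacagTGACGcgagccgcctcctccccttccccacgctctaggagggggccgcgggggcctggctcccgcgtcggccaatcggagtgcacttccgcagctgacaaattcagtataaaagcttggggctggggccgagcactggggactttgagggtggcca
Fos, chr12:85473640-85473939, plus strand: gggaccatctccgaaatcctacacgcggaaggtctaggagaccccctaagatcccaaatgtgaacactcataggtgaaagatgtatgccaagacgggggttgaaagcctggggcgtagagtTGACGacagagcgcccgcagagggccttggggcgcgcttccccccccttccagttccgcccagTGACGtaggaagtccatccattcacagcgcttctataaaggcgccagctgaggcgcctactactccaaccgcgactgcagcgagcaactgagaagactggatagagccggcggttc
Atf3, chr1:191183284-191183583, minus strand: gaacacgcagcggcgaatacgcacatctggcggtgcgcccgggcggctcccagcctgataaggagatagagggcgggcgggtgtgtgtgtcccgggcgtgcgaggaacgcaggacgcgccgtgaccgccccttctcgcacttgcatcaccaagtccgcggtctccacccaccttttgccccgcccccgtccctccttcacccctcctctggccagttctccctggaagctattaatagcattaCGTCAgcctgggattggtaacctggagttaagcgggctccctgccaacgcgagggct
Counted from the start, the Jun match lay at bases -45 to -38 and the Junb match at -106 to -102. Fos had matches at -129 to -125 and at -66 to -62, and Atf3 had 1 at -7 to -3 on the opposite strand. Windows were at hand for 8 members, and 6 motifs were searched on both strands. TGACG was found in 5 of the 8 (Junb, Fos, Fosb, Atf3 and Batf), against 20.8% of 32851 windows. In the same order, the G and C share of these windows was 65.3%, 58.7%, 68.3%, 64.7% and 49.7%. The median over all windows was 52.7%, and the part of base composition in the count was not tested. TGACATCA was found in Jun alone of the 8, against 3.62% of windows, and was added after the Jun window had been read. TGANTCA, the classical AP-1 site (7.81% of windows), TGACGTCA, the full response element that contains TGACG (1.79%), the CArG box bound by serum response factor (1.63%) and AGGCCT, the core letters of the ZFX motif (10.3%), had no match in the 8 windows. The Jund and Fosl2 windows held none of the 6 motifs. Sites further than 250 bases before the start lay outside the windows, so a missing match does not show that a gene lacks the site.

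Median intensity per array lay between 144.7 and 158.2. The fl vehicle array from line 10986 stood apart, at 49.4 on the first principal component (47.2% of the variance) against -20.4 to 23.0 for the others, and results are also given without that line. Across genes, the 4-OHT changes of line 10977 and those of line 10980 correlated at -0.22, so results that rest on them are given per line. Whether the vehicle and 4-OHT labels of lines 10977 and 10980 are right was not tested. Every wt result and every comparison of fl with wt lines rests on these labels. The fl changes themselves do not, but their SEs and p-values do in part, because the fit shares 1 spread over all 10 arrays. With the fl arrays alone, the SE of the fl change was 0.23 for Jun and 0.12 for Junb, against 0.31 and 0.11 with all arrays. The sorted receptor gene Kit had log2 levels of 8.72, 9.20 and 8.74 on the fl 4-OHT arrays of lines 10949, 10950 and 10986, against 8.35, 8.90 and 8.81 on their vehicle arrays. In lines 10977 and 10980 Kit stood at 8.64 and 9.94 with 4-OHT, against 8.48 and 9.79 with vehicle. The targeted gene Zfx stood at 10.07, 9.98 and 10.02 on the fl 4-OHT arrays, against 10.09, 9.63 and 9.24 on the fl vehicle arrays, and at 9.90 and 10.04 against 10.12 and 10.07 in the wt lines. Its probe set therefore did not show the deletion. How its probes lie relative to the deleted exons is unknown here, so it checks no label, and deletion in the fl 4-OHT cultures rests on the labels alone.

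With 4-OHT, the 3 Jun genes had lower values than with vehicle in every fl line, while Atf3, Fosl1 and Fosl2 had higher values in every fl line. None of the 9 members passed the test over all genes (limma with the line as a block, Benjamini-Hochberg adjusted p under 0.05), a threshold that 0.153% of the genes tested passed in this comparison (0.0511% higher, 0.102% lower). At an unadjusted p under 0.05, 3 members were lower (Jun, Junb and Jund) against 5.65% of genes, and 2 were higher (Fosl1 and Atf3) against 6.68%. Over the 9 members the median log2 change was -0.19, against -0.00004 over all genes tested. In bulk RNA, fewer cells of a type and less RNA per cell cannot be told apart.

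**Figure D1:**
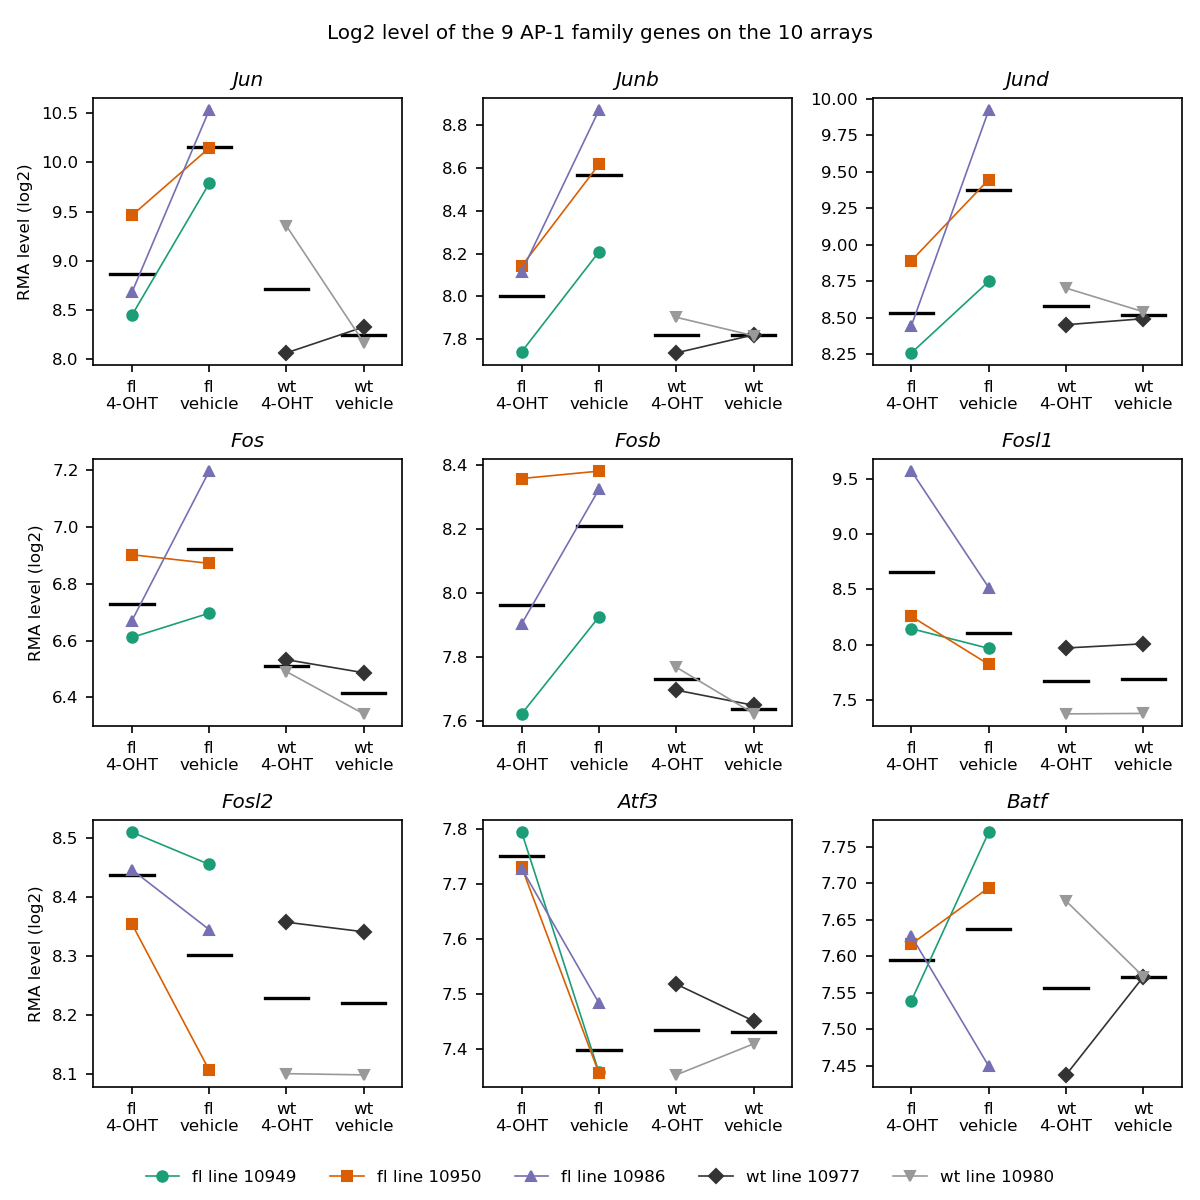
Log2 RMA level (y axis) of each of the 9 genes on the 10 arrays, by group (x axis). Points are arrays, thin lines join the arrays of 1 line and black bars are group means; y axes differ between panels. The 3 fl vehicle arrays of Jun sit at 9.79 to 10.53, above the other 7 arrays at 8.06 to 9.46.

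Jun encodes c-Jun, the founding and most strongly activating member. It had log2 levels of 8.44, 9.46 and 8.68 on the fl 4-OHT arrays of lines 10949, 10950 and 10986, against 9.79, 10.15 and 10.53 on their vehicle arrays. All 3 fl 4-OHT arrays were below all 3 fl vehicle arrays. The change was -1.30 (SE 0.31, 95% confidence interval -2.03 to -0.56, n = 3 line pairs, limma adjusted p = 0.159), which is a level 2.46-fold lower with 4-OHT. Of the 15662 genes tested, 12 had a more negative change. By line it was -1.34, -0.69 and -1.86, so the spread between lines was wide, and line 10986 with its unusual vehicle array gave the largest value. Without that line the change was -1.02 (limma adjusted p = 0.124).

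Junb encodes JunB, which often opposes c-Jun in growth control. It stood at 7.74, 8.14 and 8.12 on the fl 4-OHT arrays, against 8.21, 8.62 and 8.87 on the fl vehicle arrays. The groups did not overlap, and the lines ran close together, at -0.47, -0.48 and -0.76. The mean change was -0.57 (SE 0.11, 95% confidence interval -0.82 to -0.31, limma adjusted p = 0.109), a level 1.48-fold lower with 4-OHT. Without line 10986 it passed, at -0.47 (limma adjusted p = 0.0443).

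Jund encodes JunD, the Jun protein with the steadiest expression in most tissues. It stood at 8.26, 8.89 and 8.45 on the fl 4-OHT arrays, against 8.75, 9.45 and 9.92 on the fl vehicle arrays. Line 10950 with 4-OHT lay above line 10949 with vehicle, so the groups overlapped although every line was lower with 4-OHT. The changes were -0.49, -0.56 and -1.47, with a mean of -0.84 (SE 0.20, 95% confidence interval -1.31 to -0.37, limma adjusted p = 0.157). The value of line 10986 was the largest, and without it Jund passed with a smaller change of -0.52 (limma adjusted p = 0.0368). In that fit without line 10986, Junb and Jund were the members that passed, and 440 genes passed in all (144 higher, 296 lower), against 24 with it (8 higher, 16 lower). Quantile normalization gave 28 higher and 33 lower among all genes and no member.

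Fos encodes c-Fos, the classical partner of c-Jun, whose transcript is among the shortest-lived. It stood at 6.61, 6.90 and 6.67 on the fl 4-OHT arrays, against 6.70, 6.87 and 7.20 on the fl vehicle arrays, close to the filter level of 6.23. The groups overlapped, and the changes of -0.09, 0.03 and -0.53 rested on line 10986. Their mean was -0.19 (SE 0.13, 95% confidence interval -0.50 to 0.11, limma adjusted p = 0.644), and -0.03 without that line. Fosb, a second activating Fos gene, stood at 7.62, 8.36 and 7.90 with 4-OHT, against 7.93, 8.38 and 8.32 with vehicle. It was lower with 4-OHT in every fl line, by amounts that ran from -0.42 to -0.02, with a mean of -0.25 (SE 0.11, limma adjusted p = 0.44).

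Fosl1 and Fosl2 encode Fra-1 and Fra-2, Fos-related proteins that lack the strong activation domain of c-Fos. Fosl1 stood at 8.14, 8.25 and 9.57 on the fl 4-OHT arrays, against 7.97, 7.82 and 8.52 on the fl vehicle arrays. Line 10986 had the highest level under both treatments, and the groups overlapped. The changes were 0.18, 0.43 and 1.05, with a mean of 0.56 (SE 0.17, 95% confidence interval 0.16 to 0.95, limma adjusted p = 0.245), or 0.31 without line 10986. Fosl2 ranged from 8.35 to 8.51 on the fl 4-OHT arrays and from 8.11 to 8.46 on the fl vehicle arrays. Its changes ran from 0.05 to 0.25, with a mean of 0.14 (SE 0.09, limma adjusted p = 0.665).

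Atf3 encodes a stress-induced factor that acts downstream of ATF4 and represses as a homodimer. It stood at 7.79, 7.73 and 7.73 on the fl 4-OHT arrays, against 7.36, 7.36 and 7.48 on the fl vehicle arrays. The fl 4-OHT arrays were the 3 highest of all 10, and the groups did not overlap. The changes were 0.44, 0.37 and 0.24, with a mean of 0.35 (SE 0.10, 95% confidence interval 0.12 to 0.58, limma adjusted p = 0.201), a level 1.28-fold higher with 4-OHT. The direction held in each line, and the mean was 0.41 without line 10986 (limma adjusted p = 0.0648). Batf, which pairs with Jun proteins and with IRF4 and IRF8, had no common direction, with changes of -0.23, -0.08 and 0.18 and a mean of -0.04 (SE 0.12, limma adjusted p = 0.979).

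Counted over the members, 4 were lower in every fl line (Jun, Junb, Jund and Fosb) against 14.5% of genes, and 3 were higher in every fl line (Fosl1, Fosl2 and Atf3) against 14.6%. The fl 4-OHT and fl vehicle arrays did not overlap for Jun and Junb (lower, 7.27% of genes) and for Atf3 (higher, 4.55% of genes).

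**Figure D2:**
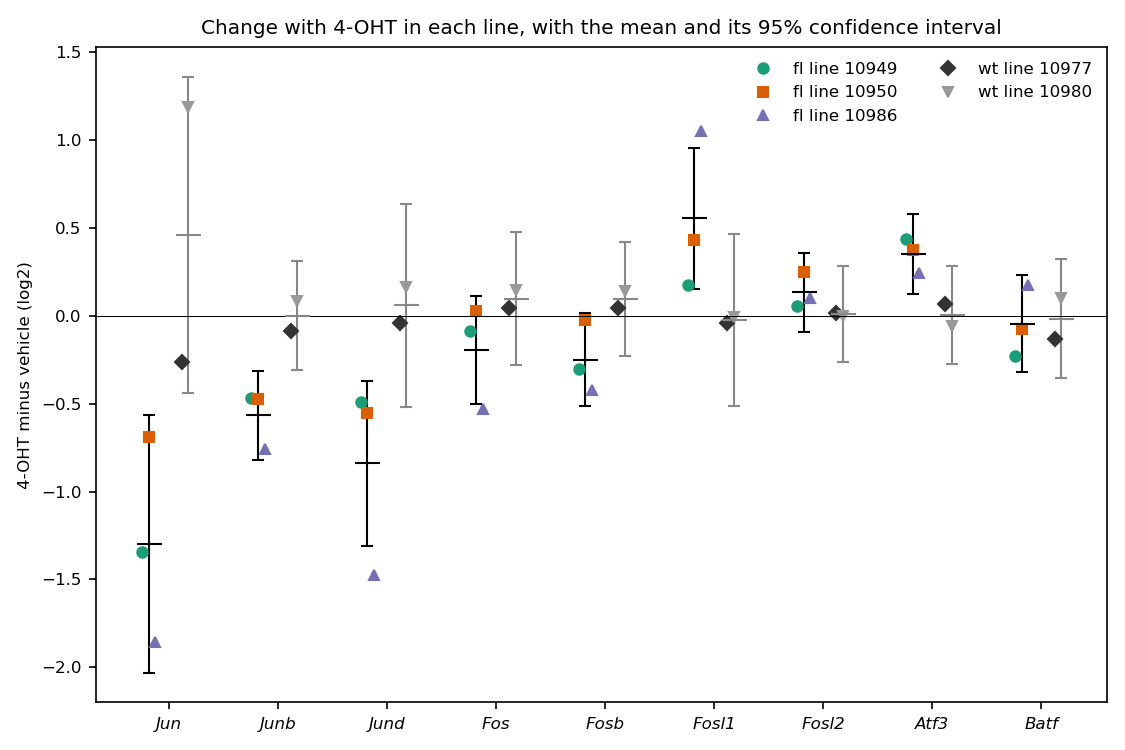
Log2 4-OHT minus vehicle (y axis) for each gene (x axis) in the 3 fl lines (left of each pair) and the 2 wt lines (right). Points are lines, and bars are the fitted mean with its 95% confidence interval; Jun has a fitted mean of -1.30 for fl and 0.46 for wt, where line 10980 lies at 1.19.

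In the wt lines, which have no floxed Zfx, 4-OHT gave no member a change above 0.15 in the same direction in both lines. Jun stood at 8.06 and 9.35 on the 4-OHT arrays of lines 10977 and 10980, against 8.32 and 8.16 on their vehicle arrays. The lines went opposite ways, at -0.26 and 1.19, and the mean of 0.46 (SE 0.38, 95% confidence interval -0.44 to 1.36, limma adjusted p = 1) averages them. Junb was at 7.74 and 7.90 with 4-OHT, against 7.82 and 7.82 with vehicle, with changes of -0.08 and 0.09. Jund was at 8.45 and 8.70 with 4-OHT, against 8.49 and 8.54 with vehicle, with changes of -0.04 and 0.16. All 3 Jun genes were thus lower with 4-OHT in line 10977 and higher in line 10980, and their wt means took the sign of the line kept when the other was left out. The remaining 6 members had changes between -0.13 and 0.15 in both wt lines. Fos, Fosb and Fosl2 were higher and Fosl1 lower with 4-OHT in both lines, that is 4 of 9 members, against 48.8% of genes (24.3% higher, 24.5% lower). Fos and Fosb did not overlap between the wt 4-OHT and wt vehicle arrays, against 26.7% of genes (14.3% higher). Fos stood at 6.53 and 6.49 with 4-OHT, against 6.49 and 6.34 with vehicle, so the nearest arrays were almost level. No member passed by limma and 0% of the genes tested did. At an unadjusted p under 0.05 there were 0 members and 0.147% of genes (0.083% higher, 0.0638% lower).

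The fl and wt responses were compared with the difference of the 4-OHT terms, fl minus wt. It was -1.76 for Jun (SE 0.49, 95% confidence interval -2.92 to -0.60, limma adjusted p = 0.707), -0.57 for Junb (SE 0.17, limma adjusted p = 0.726) and -0.90 for Jund (SE 0.31, limma adjusted p = 0.775). For Atf3 it was 0.35 (SE 0.15, limma adjusted p = 0.873). No member passed, nor did any gene (0%). At an unadjusted p under 0.05 the 3 Jun genes were below 0, against 2.78% of genes, and no member was above 0, against 3.05%, out of 5.82% in all. The changes of the 3 fl lines lay wholly below those of the 2 wt lines for Jun, Junb, Jund, Fos and Fosb (11.4% of genes) and wholly above them for Fosl1, Fosl2 and Atf3 (12.3% of genes). For Jun the size of this difference rests partly on line 10980: it was -1.03 with line 10980 left out and -2.48 with line 10977 left out.

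With both genotypes under 4-OHT, the Jun genes of the fl and wt lines were not told apart. Jun averaged 8.86 ± 0.53 on the fl 4-OHT arrays and 8.71 ± 0.91 on the wt 4-OHT arrays (SD, n = 3 and 2), a difference of 0.15 (95% confidence interval -0.79 to 1.10, limma adjusted p = 0.986). The intervals were -0.24 to 0.60 for Junb and -0.74 to 0.65 for Jund, so differences of that size cannot be told from none. Fosl1 averaged 8.66 ± 0.79 on the fl 4-OHT arrays and 7.67 ± 0.42 on the wt 4-OHT arrays, a difference of 0.98 (SE 0.41, limma adjusted p = 0.418), and 0.53 without line 10986. Atf3 averaged 7.75 ± 0.04 on the fl 4-OHT arrays and 7.44 ± 0.12 on the wt 4-OHT arrays, a difference of 0.32 (SE 0.09, limma adjusted p = 0.206). No member passed, against 0.645% of genes (29 higher, 72 lower, or 10 higher and 56 lower with arrays centred on their median). At an unadjusted p under 0.05, Fosl1 and Atf3 were higher, against 3.84% of genes, and no member was lower, against 6.97%. Fos, Fosl1 and Atf3 were higher on every fl 4-OHT array than on every wt 4-OHT array, against 12.6% of genes, of 26.8% that did not overlap in either direction.

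With vehicle in place of 4-OHT, the fl lines had higher values of 5 members than the wt lines. Whether any Zfx deletion took place in the vehicle cultures was not tested. Jun averaged 10.16 ± 0.37 on the fl vehicle arrays and 8.24 ± 0.11 on the wt vehicle arrays (SD, n = 3 and 2), a difference of 1.91 (SE 0.41, 95% confidence interval 0.97 to 2.85, limma adjusted p = 0.268), or 3.76-fold. Junb averaged 8.57 ± 0.33 on the fl vehicle arrays and 7.82 ± 0.0026 on the wt vehicle arrays, a difference of 0.75 (SE 0.19, limma adjusted p = 0.33). Jund averaged 9.37 ± 0.59 and 8.52 ± 0.03 in the same order, a difference of 0.85 (SE 0.30, limma adjusted p = 0.473). Every fl vehicle array was above both wt vehicle arrays for these 3 genes and for Fos and Fosb, against 18.6% of genes, of 30.7% that did not overlap in either direction. Fos averaged 6.92 ± 0.25 on the fl vehicle arrays and 6.41 ± 0.10 on the wt vehicle arrays, both close to the filter level of 6.23. Fosb averaged 8.21 ± 0.25 and 7.64 ± 0.02 in the same order. No member passed, against 0.0192% of genes, and these 5 were higher at an unadjusted p under 0.05, against 3.71% of genes, while no member was lower, against 6.12%, out of 9.83% in all. The difference of Atf3 was -0.03, with a 95% confidence interval of -0.24 to 0.18. Without line 10986 the differences of Jun, Junb and Jund were 1.72, 0.60 and 0.58.

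This comparison and the change in the fl lines share the fl vehicle arrays, so their values do not stand for separate evidence. In order of mean level, Jun ran from fl vehicle (10.16) through fl 4-OHT (8.86) and wt 4-OHT (8.71) to wt vehicle (8.24). The fl 4-OHT arrays (8.44 to 9.46) overlapped the wt 4-OHT arrays (8.06 to 9.35), which in turn overlapped the wt vehicle arrays (8.16 to 8.32). The fl 4-OHT arrays lay above both wt vehicle arrays, a difference that was not tested. The vehicle array of line 10986 had the highest level of all 10 arrays for 4 members (Jun, Junb, Jund and Fos), and for 27.1% of all genes tested. With that array alone left out and no line term, the fl changes were -1.11 for Jun, -0.41 for Junb and -0.56 for Jund, and no member passed by limma.

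**Figure D3:**
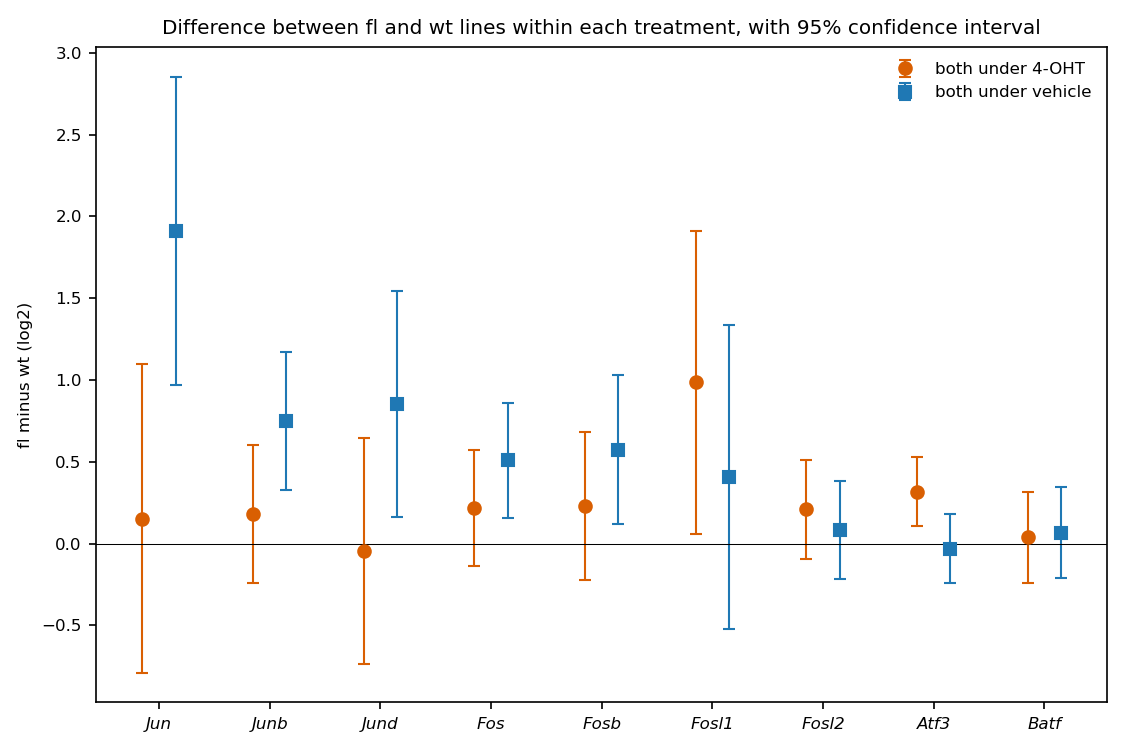
Log2 fl minus wt (y axis) for each gene (x axis) with both genotypes under 4-OHT (circles) and both under vehicle (squares), with 95% confidence intervals. Under vehicle the intervals of Jun, Junb, Jund, Fos and Fosb lie above 0, with Jun at 1.91; under 4-OHT those of Fosl1 and Atf3 do.

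Levels of the members were correlated with each other over the 10 arrays, which are pairs from 5 lines, so the correlations (Pearson's r) are descriptions only. Jun correlated with Junb at 0.91, with Jund at 0.88, with Fosb at 0.85 and with Fos at 0.83. Without the vehicle array of line 10986 these were 0.87, 0.84, 0.80 and 0.73. Jun and Atf3 correlated at -0.30, Jun and Fosl1 at 0.06, and Jun and Fosl2 at -0.13. Batf correlated with Jun at 0.32 over all arrays and at 0.85 without that array.

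Among other genes tested, the levels most like those of Jun were Slc25a1, the mitochondrial citrate carrier (r = 0.98), Zfp335, a zinc finger gene (0.97), and the vault RNA gene Vaultrc5 (0.97). These r values were 0.98, 0.96 and 0.97 without the vehicle array of line 10986, and 0.275% of genes had r above 0.9 with Jun. By line, Vaultrc5 had changes of -2.22, -1.35 and -2.31 in fl lines 10949, 10950 and 10986, and -0.51 and 1.68 in wt lines 10977 and 10980. It was chosen by its r with Jun on these same arrays, so the signs it shares with Jun are no separate evidence. For Fos the closest were Defa39, 1700030J22Rik and She (each r = 0.98), and 2.08% of genes had r above 0.9. For Atf3 they were Lncpint, a long noncoding RNA gene, Lrch1 and the neutrophil collagenase gene Mmp8 (each r = 0.94), and 0.115% of genes had r above 0.9.

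Around the members, the tested genes of the wider AP-1 pathway gave no call in the fl comparison. Of 21 tested genes of other bZIP factors none passed, and their median change was 0.02. The largest were Nfil3, a bZIP repressor, at 0.52 (SE 0.12, limma adjusted p = 0.157) and Ddit3, the stress factor CHOP, at -0.45 (SE 0.12, limma adjusted p = 0.181). Of 15 kinases upstream none passed (median 0.12), with Rps6ka3 at 0.53 (SE 0.24) and Map3k5, the stress kinase ASK1, at 0.38 (SE 0.12). The Rps6ka3 value rests on line 10986, with 0.36, -0.08 and 1.31 in lines 10949, 10950 and 10986, while Map3k5 was at 0.40, 0.35 and 0.39. Of 12 genes of serum response factor, its partners and coactivators none passed (median 0.05), with Mrtfb at 0.39 (SE 0.09) and Elk4 at 0.26 (SE 0.10). Of 7 genes of AP-1 degradation and cofactors none passed (median -0.02), with Cops5, a Jun coactivator subunit of the COP9 signalosome, at 0.29 (SE 0.25) and Jdp2, a Jun dimerisation partner that represses AP-1, at -0.16 (SE 0.15). Cops5 was higher with 4-OHT in line 10986 (1.13) and lower in lines 10949 and 10950 (-0.07 and -0.18), so its sign rests on line 10986. Jdp2 also differed in sign between lines, at -0.58, -0.09 and 0.17 in lines 10949, 10950 and 10986.

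Of 13 MAP kinase phosphatases and feedback inhibitors none passed (median -0.0034). The largest changes ran in opposite directions, with Dusp6, the ERK phosphatase, at 0.67 (SE 0.17, limma adjusted p = 0.178) and Dusp1, an immediate early phosphatase of JNK and p38, at -0.60 (SE 0.12, limma adjusted p = 0.124). Heat shock and cell handling genes had a median of 0.0043 over 11 genes, with Dnajb1 at -0.28 (SE 0.15) and Hsph1 at 0.19 (SE 0.14). Dnajb1 was at -0.51, -0.50 and 0.17 and Hsph1 at 0.20, -0.04 and 0.41 in lines 10949, 10950 and 10986, so neither had 1 direction. Their summed intensity was 34924 to 38405 on the fl 4-OHT arrays and 33892 to 38117 on the fl vehicle arrays, and the part of handling in the AP-1 values was not tested.

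Of 21 tested AP-1 target genes none passed in the fl lines, and their median change was 0.21. At an unadjusted p under 0.05, 9 of them were higher and 2 lower, against 6.68% and 5.65% of genes. Thbs1, the thrombospondin gene, was at -2.10 with an SE of 1.23. It was at -1.89, -1.92 and -2.48 in fl lines 10949, 10950 and 10986, but at -4.07 and 3.68 in wt lines 10977 and 10980, further from 0 than in any fl line. The chemokine gene Ccl3 was at 1.52 (SE 0.38, limma adjusted p = 0.174) in the fl lines, and at 0.77 and -1.35 in wt lines 10977 and 10980. With both genotypes under 4-OHT, Ptgs2, the gene of inducible cyclooxygenase, was higher in fl lines by 0.98 (SE 0.13, limma adjusted p = 0.0215). Vegfa, the angiogenic growth factor gene, was lower there, at -1.47 (SE 0.23, limma adjusted p = 0.0401). Neither call holds without line 10980, when 0 genes passed in that comparison.

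Of 22 tested markers of differentiating myeloid cells, 2 passed in the fl comparison, against 0.153% of all genes tested. Of 12 tested monocyte and macrophage markers, Ctss rose by 1.40 (SE 0.16, limma adjusted p = 0.046) in the fl lines, 11 did not pass, and the median change was 0.51. Their summed intensity was 10877 to 18025 on the fl 4-OHT arrays, against 7706 to 11692 on the fl vehicle arrays. It was 9486 to 16146 on the wt 4-OHT arrays, against 12159 to 13492 on the wt vehicle arrays. By line, Ctss had changes of 1.46, 1.03 and 1.72 in fl lines 10949, 10950 and 10986, and of 0.24 and -0.20 in wt lines 10977 and 10980. The median change of this list was 0.29 in wt line 10977 and -0.35 in wt line 10980, the lines in which Jun had changes of -0.26 and 1.19. Of 10 late granulocyte markers, Mmp8 rose by 2.56 (SE 0.19, limma adjusted p = 0.0143), 9 did not pass, and the median was 0.22. The summed intensity of 11 measured late granulocyte markers was 7806 to 15204 with 4-OHT, against 5773 to 9825 with vehicle, in the fl lines, and 5783 to 24368 against 9685 to 20595 in the wt lines. The Ctss and Mmp8 calls end with the fl arrays alone, and on leaving out any of lines 10949, 10950, 10977 and 10980, when 0 genes passed in the fl lines. The part of these markers in the AP-1 values was not tested.

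The other marker lists gave no call in the fl lines. The 14 genes of leukaemic progenitor identity had a median of 0.0049, with Cd34 at 1.04 (SE 0.35; 0.58, 0.44 and 2.09 in lines 10949, 10950 and 10986) and Cebpa at -0.48 (SE 0.14). Medians were -0.00057 for 8 mast cell and basophil markers, 0.0039 for 5 erythroid and megakaryocyte markers and -0.01 for 5 lymphoid markers, and none of these genes passed. The B cell genes Cd79a and Ebf1, the T cell gene Cd4, Il7r, and the platelet gene Pf4 were below the level filter of 6.23 on average. Other genes of these lists were above it, with Nkg7 at 11.15, Cd3e at 7.03, Vpreb1 at 6.71, Rag1 at 6.51, Pax5 at 6.41 and Itga2b at 7.36. The levels therefore do not show that such cells were absent.

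**Figure D4:**
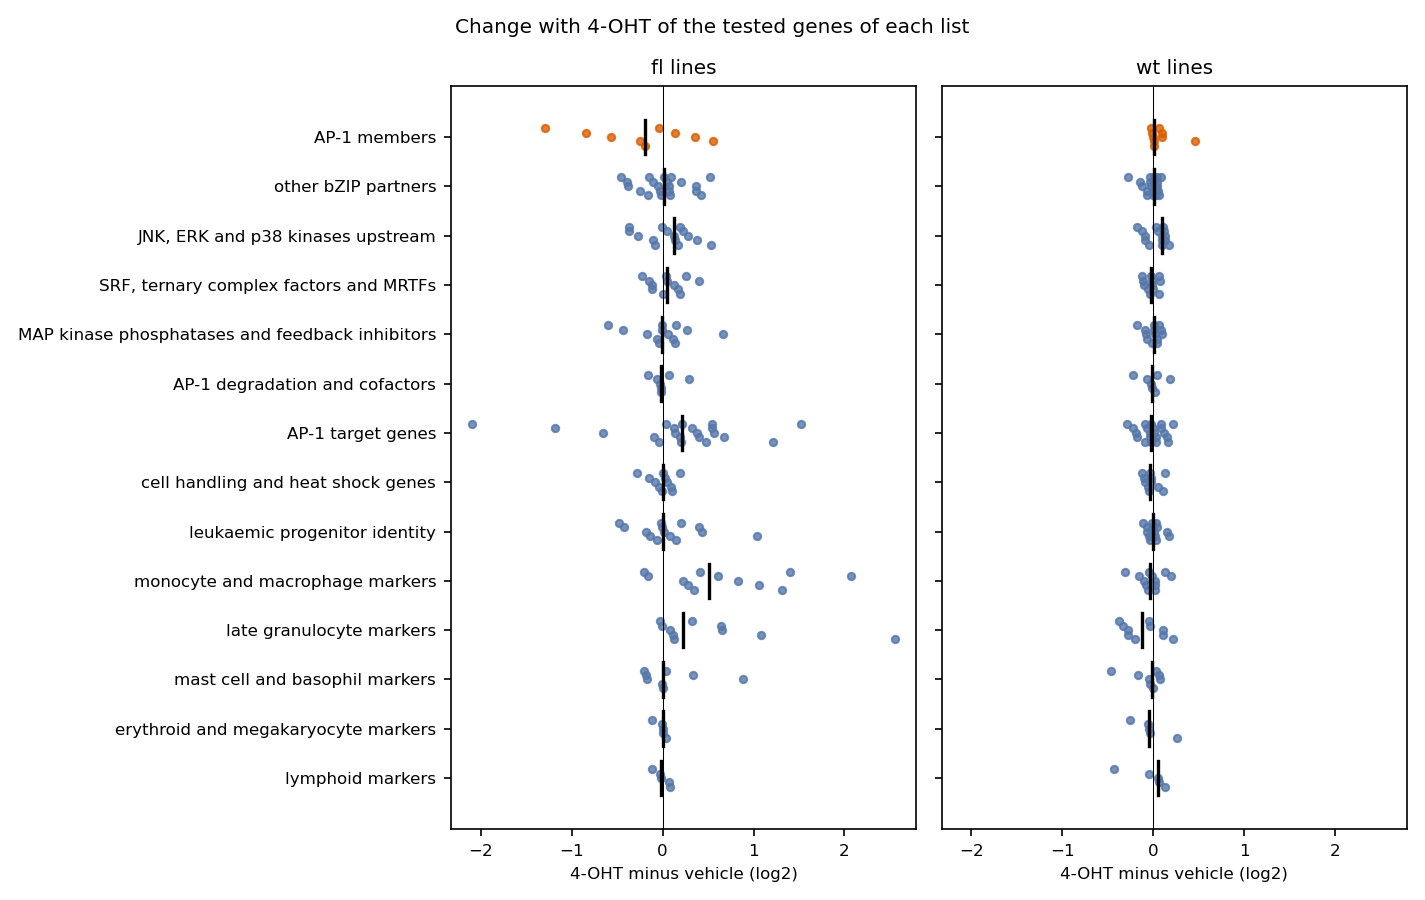
Log2 4-OHT minus vehicle (x axis) of the tested genes of each list (y axis) in the fl lines (left) and wt lines (right), with the list median as a black bar. The AP-1 members (top row) have a median of -0.19 for fl, against 0.51 for monocyte and macrophage markers.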

How the data were processed

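Total RNA was hybridised to 10 biotin-labelled 1-colour arrays. The authors made the deposited intensity values, 1 per probe set and array, with RMA per the submitters' processing notes, whose software version is unknown here. Their range is that of linear values, so log2 was taken of each. Of 35556 probe sets, 21789 had 1 gene symbol in the platform annotation, 1621 had several and 12146 were unnamed. A gene was represented by its probe set with the highest mean, which gave 19938 genes, and genes averaging under log2 6.23 (the 25th percentile over probe sets) were left out. All per-sample columns were used.

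Tests used limma 3.58.1 in R 4.3.3 with statmod 1.5.0 on all 10 arrays, two-sided, with Benjamini-Hochberg adjustment over 15662 genes at 0.05. The 4-OHT changes were fitted with the line as a block, since each line was cultured both ways, and with separate terms for fl and wt lines (3 residual and 6.69 total degrees of freedom). For fl against wt, 4 group means were fitted and the line entered as a random effect (correlation 0.165). Both arrays of a line deviated from their group means with a correlation of 0.78 (10949), 0.22 (10950), -0.06 (10986) and 0.43 (each wt line). The code was tested on simulated data. No array was a copy of another: at most 6 of its values equalled those of another array. Arrays have no read depth, and their number limits the precision (median SE 0.12 in the fl and 0.14 in the wt lines). Whether the cultures of a line were separate experiments is not given, so p-values speak only for these lines. For the 4-OHT changes they use 1 spread per gene, pooled over fl and wt lines and drawn towards that of all genes. For fl against wt, the correlation of 0.165 was applied to every line, although the deviations above correlated at -0.06 to 0.78. These p-values therefore do not measure the spread between the lines of 1 genotype alone.

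The members, the 14 lists and the alternatives were chosen with earlier results of these data known. Named were all members, and from each list the passing genes or the largest changes in the fl lines, and for Jun, Fos and Atf3 the 3 genes with the highest Pearson's r. The genes below the filter, and those of the same lists given as above it, were named after their values were seen, as was Vaultrc5 by line. Promoter windows are from RefSeq, build GRCm38.p6, matched by symbol for 8 of 9 members. Alternatives were no block or a random block, other level filters, median centring, quantile normalization, a trended and robust prior, array weights, the mean over probe sets, log2(value + 16), the arrays of 1 genotype alone, each line left out in turn, and no block without the vehicle array of line 10986.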

Additional observations from a re-analysis of the deposited data

Results flagged for a closer look

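The 4-OHT changes of Fosb were negative in all 3 fl lines (-0.30, -0.02 and -0.42 in lines 10949, 10950 and 10986) and positive in both wt lines (0.05 and 0.14 in lines 10977 and 10980). The difference, fl minus wt, was -0.34 (SE 0.17, limma adjusted p = 0.877), so the opposite directions did not pass a test. The changes of Fosl1 were positive in all 3 fl lines (0.18, 0.43 and 1.05) and negative in both wt lines (-0.04 and -0.0042), where they were close to 0. The difference was 0.58 (SE 0.26, limma adjusted p = 0.875), which did not pass either. The groups of 2 and 3 arrays are too small for a check of single outlying arrays.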

How the results depend on the processing

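Among the values of single members under the alternatives, 680 kept their direction and side of the threshold, 15 newly passed and 20 reversed. Many of the 4-OHT changes could not turn, because the block, the level filter and the prior leave the estimate as it is. Averaging probe sets also leaves it, as each member has 1 probe set. Using 1 genotype alone, or leaving out a line of the other genotype, does not move it either. A kept direction under those alternatives is therefore no check. In the fl lines Jun, Junb, Jund, Fosb, Fosl1, Fosl2 and Atf3 kept their direction under each of 17 alternatives, and Fos under the 16 that gave a value, with Jun between -1.60 and -1.02 (adjusted p from 0.00151 to 0.405), Junb between -0.62 and -0.41 (0.000844 to 0.459) and Atf3 between 0.31 and 0.43 (0.00114 to 0.531). Without the line as a block (no replicate block, limma), Jun, Junb and Atf3 had adjusted p of 0.245, 0.293 and 0.151, and no member passed. That fit can alter only the SE and p, since each line has 1 array per treatment. With a random block 83 genes passed in the fl lines (17 higher, 66 lower). Array weights gave 6 members and 3907 genes in the fl lines, 1 member and 359 genes for the difference, 1 member and 1106 genes under 4-OHT and 5 members and 6237 genes under vehicle. In the group-mean fit the estimation of these weights stopped before convergence and 1 array got a weight of 116.5, and in the line-block fit the weights ran from 0.162 for line 10986 to 5.71 for line 10949.

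Leaving out 1 line gave 0 to 2 members and 0 to 440 genes in the fl lines, 0 to 20 genes for the difference, 0 to 51 under 4-OHT and 0 to 15 under vehicle. The 440 and 20 came without line 10986, the 51 and 15 without line 10977. Under 4-OHT 7, 10 and 39 genes passed without lines 10949, 10950 and 10986 and 0 without line 10980. In the fl lines 0 passed on leaving out any line other than 10986. With a line left out, a genotype with 1 line left is assumed to vary like the others. In the fl lines 8 genes passed with no level filter, 14 with the stricter filter, 3 with median centring, 61 after quantile normalization and 0 with the fl arrays alone. For the difference 1 gene passed without the block, with a random block, and when the line 10986 vehicle array was dropped together with the block. Under 4-OHT 66 passed with median centring. Under vehicle 0 passed with no filter, the stricter filter or quantile normalization, against 3.

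With 1 line left out, Batf ran from -0.15 to 0.0502 in the fl lines, from -0.15 to 0.0908 for the difference, from -0.081 to 0.16 under 4-OHT and from -0.00033 to 0.16 under vehicle. In the wt lines the ranges were -0.26 to 1.19 (Jun), -0.0843 to 0.086 (Junb), -0.0413 to 0.16 (Jund), -0.0564 to 0.067 (Atf3) and -0.13 to 0.10 (Batf). Under 4-OHT they were -0.49 to 0.80 for Jun and -0.22 to 0.0915 for Jund, and under vehicle -0.0389 to 0.20 for Fosl2. Quantile normalization turned Fosl1 to 0.0112 and Batf to 0.00097 in the wt lines, median centring turned Batf to -0.0012 under 4-OHT, and array weights turned Jun to -0.0391 under 4-OHT and Fosl2 to -0.11 under vehicle. The causes of these shifts were not tested.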
